A study of Mus musculus with 8 samples.

Results

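Expression of 9 genes that encode cytoplasmic intermediate filament proteins or proteins bound to them was compared between control and Dnm2 +/K562E soleus muscle. They were Des, Vim, Nes, Synm, Sync, Krt8, Krt18, Plec and Cryab, taken by symbol through their Ensembl IDs, and all 9 were found among the 22880 gene IDs counted. RNA-seq counts came from 4 control (Dnm2 +/+) and 4 Dnm2 +/K562E mice, all male, 2 months old and of strain C57BL/6 in the labels, with the J substrain named in the study's methods. The mutant mice were heterozygous for a point mutation that was introduced at the endogenous Dnm2 locus, so every cell of the body carried it. Soleus is a muscle rich in slow-twitch fibres, and each library held RNA of a whole muscle, with its fibres, vessels, nerve and connective tissue. In such samples a change in the number of cells of a type cannot be told apart from a change in RNA per cell.

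Intermediate filaments are rope-like cytoskeletal polymers. In adult muscle fibres desmin forms the main network, which encircles the Z-discs and links neighbouring myofibrils to each other, to nuclei and mitochondria and, at the costameres, to the sarcolemma. Vimentin and nestin are known from muscle precursor cells and immature fibres. Vimentin is also abundant in fibroblasts, endothelial cells and leukocytes, and nestin in satellite cells and at neuromuscular and myotendinous junctions. Synemin and syncoilin join the desmin network but do not form filaments on their own. Keratins 8 and 18 form an obligate pair known mainly from simple epithelia. Plectin is a large linker that ties filaments to Z-discs, costameres and other organelles, and alpha B-crystallin is a small heat shock protein that binds desmin.

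Depth was 33407430 to 48832814 counts per mouse. Levels are given as normalized CPM, which are counts scaled to a common library size with TMM factors (trimmed mean of M-values) that correct for differences in composition. The factors were 0.915 to 0.959 in controls and 1.04 to 1.10 in mutants, without overlap. Of the mature myofibre markers, 6 of 7 were lower in mutants, among them Ckm (log2 fold change -1.02), Myh2 (-0.62) and the most abundant, Acta1 (-0.52), and their summed level was 65389 to 71563 CPM in controls and 43969 to 49554 CPM in mutants. Dnm2 itself, which encodes dynamin 2, was at 66.3 ± 4.74 CPM (SD, n = 4) in controls and 73.4 ± 2.43 CPM in mutants (log2 fold change 0.15, adjusted p = 0.0910 in edgeR's quasi-likelihood test with Benjamini-Hochberg adjustment). Gene counts do not show a point mutation, so this level does not check the genotype labels.

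Of the 9 genes, 8 passed the filter on low counts (filterByExpr of edgeR), and Krt8 did not. Des, Vim, Sync and Cryab were higher in Dnm2 +/K562E muscle, Synm and Plec were lower, and Nes and Krt18 did not pass the test. For comparison, 22.2% of the 14001 genes tested were higher and 21.7% were lower at an adjusted p under 0.05, or 43.8% in either direction. When a log2 fold change of at least 0.58 was also required, Des, Vim and Sync passed as higher, as did 12.9% of all tested genes. Synm missed that limit at -0.57, and 7.85% of all tested genes passed it as lower. The groups did not overlap for the same 6 genes that passed the test, 4 of them higher and 2 lower in mutants. Of all tested genes, 41.2% had groups without overlap, 20.6% with mutants higher and 20.5% with mutants lower. The median log2 fold change was 0.56 over the 8 genes and 0.01 over all genes tested. The 8 include Krt18 at 1.31, which did not pass the test and was at 0.27 without mutant 4. As the genes were chosen with earlier results known, their median is given as a description.

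**Figure D1:**
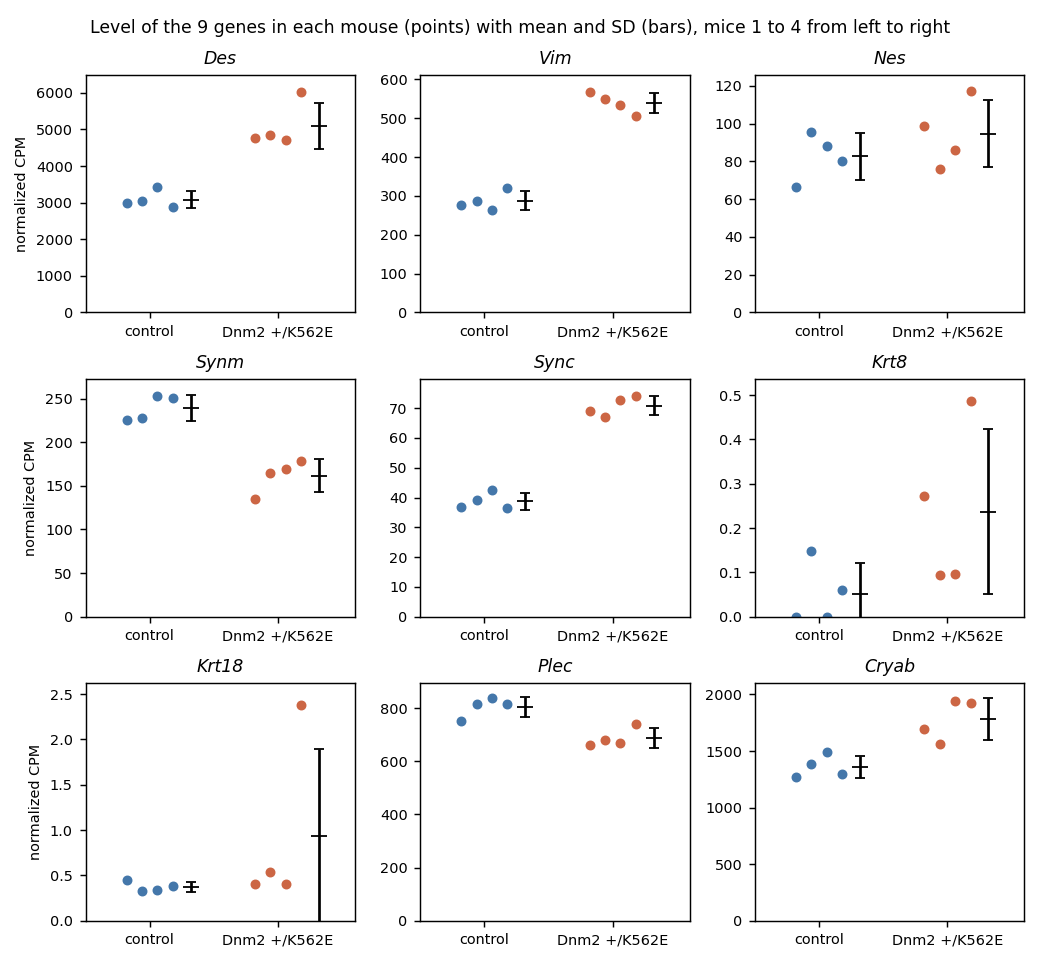
Normalized CPM of each of the 9 genes (y axes, linear from 0, a scale for each gene) in the 4 control and 4 Dnm2 +/K562E mice (points), with the mean and SD of each group at the side (bars, drawn only down to 0). Des, Vim, Sync and Cryab lay higher in every mutant than in any control, Synm and Plec lay lower, and mutant 4 stood apart for Krt18 at 2.38 CPM.

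Des, the gene of desmin (chromosome 1, 75360329 to 75368579, plus strand, GRCm38), was at 2976, 3041, 3416 and 2878 CPM in control mice 1 to 4 and at 4772, 4844, 4700.1 and 6032 CPM in Dnm2 +/K562E mice 1 to 4. Every mutant was above every control, and mutant 4 was well above the other 3. The means were 3078 ± 235 and 5087 ± 633 CPM (SD, n = 4 each), a 1.65-fold difference with a log2 fold change of 0.72 ± 0.10 (SE, adjusted p = 0.000146), and the log2 fold change was 0.63 without mutant 4. Des took 0.275 to 0.312% of all counts in controls, where it ranked 33 to 35 among all genes, and 0.4995 to 0.625% in mutants, where it ranked 11 to 13.

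Sync (chromosome 4, 129287617 to 129308559, plus strand), the gene of syncoilin, a partner of desmin at the sarcolemma and the neuromuscular junction, was at 36.9, 39.0, 42.6 and 36.3 CPM in controls and at 69.2, 67.2, 72.7 and 74.2 CPM in mutants. The groups were far apart relative to their spread. The difference was 1.83-fold (38.7 ± 2.83 against 70.8 ± 3.22 CPM), with a log2 fold change of 0.87 ± 0.07 (SE, adjusted p = 4.41e-06). Over 27.3% of its exon length Sync overlaps Rbbp4 on the other strand, and reads in that stretch could have counted for both genes, because a read over several genes was counted for each and the strand setting is not given in the sources used here. Rbbp4 itself was at 57.5 ± 1.51 CPM in controls and 59.6 ± 1.68 CPM in mutants (log2 fold change 0.05, adjusted p = 0.465).

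Synm (chromosome 7, 67730160 to 67759742, minus strand), the gene of synemin, which co-assembles with desmin and reaches towards the costameres, was at 226, 228, 253 and 251 CPM in controls and at 135, 164, 169.9 and 178 CPM in mutants. It was lower in every mutant than in any control, the opposite order to Des and Sync. The level was 239.6 ± 14.5 CPM in controls and 162 ± 18.7 CPM in mutants, which is 0.676 times the control level (log2 fold change -0.57 ± 0.09, SE, adjusted p = 0.000369). Its log2 fold change lay at percentile 9.55 of all tested genes, whereas those of Des and Sync lay at percentiles 87.6 and 90.4.

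The bases just upstream of Des, of its partner Sync and, for contrast, of Nes, which did not pass the test, are shown because these genes are expressed in muscle at different levels and differed in their response. They were taken from RefSeq (GRCm38.p6) as the annotated exon-free part of the 250 bases before each start site, at chr1:75360042-75360291, chr4:129287371-129287616 and chr3:87970843-87971077, all on the plus strand. Capitals mark E-boxes, CANNTG, the core letters that myogenic factors such as MyoD and myogenin can bind.
Des: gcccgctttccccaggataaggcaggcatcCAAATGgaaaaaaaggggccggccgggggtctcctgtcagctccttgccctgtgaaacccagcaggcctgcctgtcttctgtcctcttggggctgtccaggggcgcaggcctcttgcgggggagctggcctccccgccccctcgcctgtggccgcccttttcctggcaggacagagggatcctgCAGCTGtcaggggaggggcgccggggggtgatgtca
Sync: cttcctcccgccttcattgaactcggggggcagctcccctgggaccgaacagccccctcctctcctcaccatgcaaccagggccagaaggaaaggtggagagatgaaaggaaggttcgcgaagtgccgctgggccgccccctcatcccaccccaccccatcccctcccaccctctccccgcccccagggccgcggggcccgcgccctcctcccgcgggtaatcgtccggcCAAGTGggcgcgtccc
Nes: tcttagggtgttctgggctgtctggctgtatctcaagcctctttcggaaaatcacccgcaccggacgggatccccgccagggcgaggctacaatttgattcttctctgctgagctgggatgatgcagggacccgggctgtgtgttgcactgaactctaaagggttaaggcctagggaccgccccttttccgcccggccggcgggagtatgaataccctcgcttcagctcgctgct
Windows were found for 7 of the 9 genes, and Plec and Cryab were not among them. Motifs were counted over all 250 bases of each window. The windows of Vim and Synm lay wholly within annotated exons, so the 1 E-box of Synm lies in exon sequence. E-boxes were searched as CANNTG, which reads the same on both strands, and GC boxes as GGGCGG on both strands. The upstream window of Des held 2 E-boxes and 2 GC boxes, that of Sync 1 and 3, of which 2 GC boxes lie in the printed part, and that of Nes held no E-box and 2 GC boxes. An E-box was present in 5 of the 7 windows and in 66.2% of 32851 mouse promoter windows of the same length, so it was common in both. A GC box was present in 3 of the 7 windows and in 32.7% of all windows. No CArG box or MEF2 motif was found in the 7 windows, and neither was TGANTCA, the AP-1 motif. These motifs were present in 1.47, 2.92 and 6.75% of all windows. G and C made up 67.2% of the printed bases of Des, 70.3% of those of Sync and 58.7% of those of Nes, against a median of 52.4% over all windows.

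Vim, the gene of vimentin (chromosome 2, 13573927 to 13582826, plus strand), was at 277, 288, 263 and 320.1 CPM in controls and at 568, 548, 533 and 507 CPM in mutants. All 4 mutants were above all 4 controls with a wide gap. The difference was 1.88-fold (287 ± 24.3 against 539 ± 25.8 CPM), with a log2 fold change of 0.91 ± 0.07 (SE, adjusted p = 4.41e-06), the greatest among the 6 of the 9 genes that passed the test. The summed level of 5 fibroblast markers moved the same way, from 1226 to 1908 CPM in controls to 2672 to 3394 CPM in mutants, with 5 of 5 higher, among them Lum (log2 fold change 1.65), Pdgfra (1.11) and the most abundant, Dcn (0.99). That of 5 macrophage markers was 61.8 to 114 CPM in controls and 131 to 220.1 CPM in mutants, with 5 of 5 higher, including Cd68 (1.77), Ptprc (1.20) and the most abundant, Csf1r (1.18). That of 5 tendon markers was 293 to 630 CPM and 883 to 1209 CPM, with 5 of 5 higher, including Tnmd (1.42), Mkx (1.18) and the most abundant, Fmod (1.11). Endothelial markers, another vimentin-expressing cell type, were lower for 5 of 5 genes, at 892 to 934 CPM in controls and 639 to 726 CPM in mutants, and for 3 of 5 with library size alone. Kdr (-0.64), Tie1 (-0.46) and the most abundant, Cdh5 (-0.40), were lower in both, and Pecam1 and Emcn were lower only with TMM scaling (adjusted p = 0.537 and 0.134 with library size alone). None of the markers in these 4 lists was at 0 in all mice, and the part of each cell type in the Vim level was not tested.

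Nes, the gene of nestin (chromosome 3, 87971078 to 87980451, plus strand), was at 66.4, 95.8, 88.3 and 80.3 CPM in controls and at 98.7, 76.1, 86.2 and 117 CPM in mutants. The groups overlapped, and the spread was wider than that of Des or Vim, with a coefficient of variation of 15.2% in controls and 18.8% in mutants. The log2 fold change was 0.19 ± 0.14 (SE, adjusted p = 0.284). It was 0.40 with an adjusted p of 0.0262 when libraries were scaled by their size alone, a scaling that moved the median of all genes to 0.22. Genes of regenerating and immature fibres were higher for 4 of 6 markers, including Myh3, the embryonic myosin (log2 fold change 3.84), and Myog, the gene of myogenin (3.10). Myh8, another myosin gene (0.09, adjusted p = 0.594), and Mymk (1.00, adjusted p = 0.0539) did not pass the test. Mymk passed with library size alone and in DESeq2 (adjusted p = 0.0244 and 0.0278). The summed level of the 6 markers was 64.5 to 76.1 CPM in controls and 399.96 to 576 CPM in mutants. Myh3 alone had means of 23.1 CPM in controls and 330 CPM in mutants. Satellite cell markers went both ways, with Pax7, Myf5 and Calcr lower and Chodl higher. Calcr had a log2 fold change of -3.47 and Pax7 one of -2.03. Cdh15 did not pass the test (0.08, adjusted p = 0.497), but was higher with library size alone (0.29, adjusted p = 0.0137). The summed level of the 5 satellite cell markers was 58.0 to 84.6 CPM in controls and 152 to 181 CPM in mutants. Chodl, the most abundant, had means of 40.0 and 141 CPM, so the sum followed Chodl and not Pax7, Myf5 and Calcr. None of these markers was at 0 in all mice, and their part in the Nes and Vim levels was not tested.

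Plec, the gene of plectin (chromosome 15, 76170974 to 76232574, minus strand), was at 751, 816, 838.5 and 815 CPM in controls and at 660.5, 679.6, 669 and 741 CPM in mutants. The lowest control lay just above the highest mutant. The difference was small (805 ± 37.5 against 688 ± 36.4 CPM, log2 fold change -0.23 ± 0.06, SE, adjusted p = 0.0128), and with library size alone the log2 fold change was -0.02 (adjusted p = 0.811). Parp10, which shares 1.13% of the Plec exon length on the same strand, was also lower (10.8 ± 1.81 against 7.71 ± 0.416 CPM, adjusted p = 0.0104).

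Cryab, the gene of alpha B-crystallin (chromosome 9, 50751325 to 50756636, plus strand), was at 1269, 1389, 1489 and 1294 CPM in controls and at 1698, 1562, 1945 and 1924 CPM in mutants. Every mutant was above every control. The difference was 1.31-fold (1360.2 ± 100.4 against 1782 ± 184 CPM), with a log2 fold change of 0.39 ± 0.09 (SE, adjusted p = 0.00402). Hspb2, a small heat shock protein gene that overlaps 17.0% of the Cryab exon length on the other strand, was at 75.1 ± 5.14 CPM in controls and 67.97 ± 6.16 CPM in mutants (log2 fold change -0.14, adjusted p = 0.155).

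**Figure D2:**
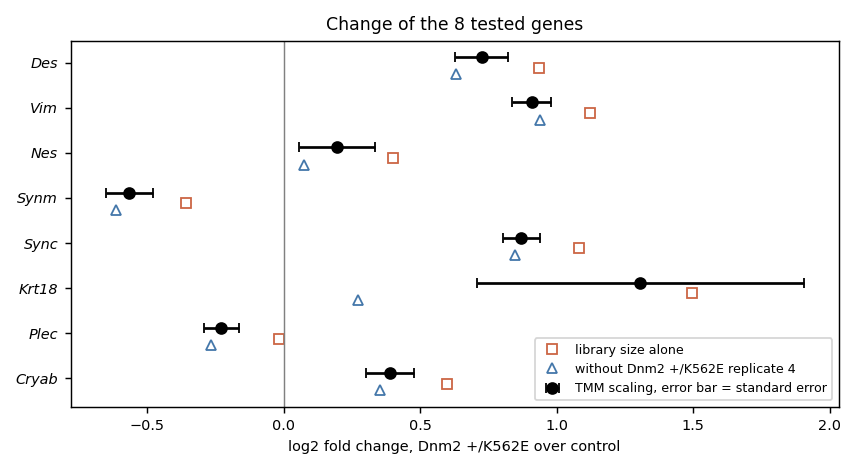
Log2 fold change of Dnm2 +/K562E over control (x axis) for the 8 genes tested, with TMM scaling (filled points, SE bars), with library size alone (squares) and without mutant 4 (triangles). Des, Vim, Sync and Cryab lay above 0 and Synm below 0 in all 3, Plec reached -0.02 with library size alone, and Krt18 dropped from 1.31 to 0.27 without mutant 4.

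The keratin pair was near the limit of detection. Krt18 (chromosome 15, 102028180 to 102032027, plus strand) had 15, 11, 15 and 13 reads in controls and 15, 23, 17 and 88 reads in mutants. Mutants 1 to 3 lay close to the controls and mutant 4 alone was high, holding 61.5% of the mutant reads. The log2 fold change was 1.31 ± 0.60 (SE, adjusted p = 0.0997) with all mice and 0.27 (adjusted p = 0.576) without mutant 4. Krt8 (chromosome 15, 101996698 to 102004482, minus strand) had 0, 5, 0 and 2 reads in controls and 10, 4, 4 and 18 reads in mutants, with the highest count again in mutant 4. Without the filter on low counts its log2 fold change was 2.16 ± 0.99 (SE, adjusted p = 0.113 over 17604 genes). Of the stretches of 31 bases in Krt8 transcripts, 36.1% also occur in other genes, mostly in the pseudogene Krt8-ps, so its count is uncertain.

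Markers of epithelia, the tissue in which this keratin pair is best known, were as sparse. Epcam had 29 reads and Cldn4 had 3 reads over all 8 mice, and neither passed the filter. The summed level of the 5 epithelial markers was 1.64 to 2.83 CPM in controls and 1.98 to 3.34 CPM in mutants, and of the 3 tested only Krt7, also a keratin, was higher, while the most abundant, Cdh1, did not pass the test. Whether RNA of epithelial cells took part in the keratin counts was not tested.

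Ratios of 2 genes within a library do not depend on how libraries are scaled, and 6 of them were compared with an exact two-sided permutation test over mice, for which 0.0286 is the smallest p that 4 against 4 mice can give. Per 100 Des reads there were 7.60, 7.49, 7.41 and 8.73 Synm reads in controls and 2.83, 3.39, 3.61 and 2.95 in mutants. The log2 ratio of Synm to Des differed by -1.29 in mutants (exact permutation p = 0.0286, adjusted p = 0.0429 over the 6 ratios), and the groups were widely separated. For Plec there were 25.2, 26.8, 24.5 and 28.3 reads per 100 Des reads in controls and 13.8, 14.03, 14.2 and 12.3 in mutants, a log2 difference of -0.95 with the same exact permutation p and adjusted p. Cryab, although higher in mutants, did not keep pace with Des. It had 42.6, 45.7, 43.6 and 44.9 reads per 100 Des reads in controls and 35.6, 32.3, 41.4 and 31.9 in mutants (log2 difference -0.33, exact permutation p = 0.0286, adjusted p = 0.0429). Nes fell behind as well, with a log2 difference of -0.53 at the same p values. Nes alone did not pass edgeR's quasi-likelihood test (adjusted p = 0.284). All these ratios share the Des count, which was higher in every mutant. They are therefore not independent of each other or of the Des result.

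The ratio of Vim to Des did not pass this test. Per 100 Des reads there were 9.31, 9.46, 7.69 and 11.1 Vim reads in controls and 11.9, 11.3, 11.3 and 8.40 in mutants. Mutants 1 to 3 were above all controls, and mutant 4, which had the highest Des level, was below 3 of the controls. The log2 difference was 0.19 (exact permutation p = 0.286, adjusted p = 0.286) with all mice and 0.31 without mutant 4 (adjusted p = 0.0686, with 0.0571 the smallest unadjusted p that 3 against 4 mice can give). The log2 ratio of Krt8 to Krt18 differed by 1.56 (exact permutation p = 0.200, adjusted p = 0.240) when 0.5 was added to each count and by 0.17 when 5 was added, so that it rested on the constant.

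**Figure D3:**
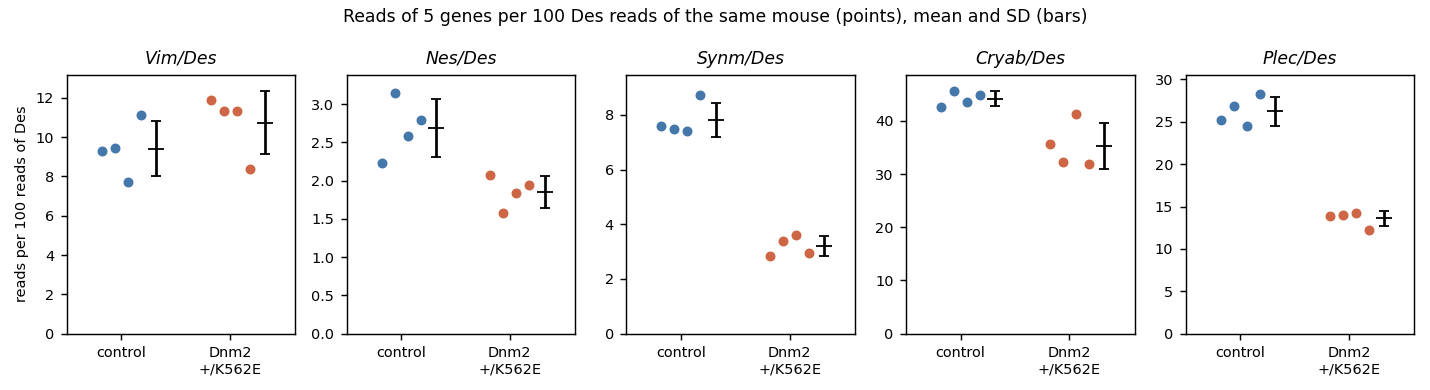
Reads of Vim, Nes, Synm, Cryab and Plec per 100 Des reads of the same library (y axes, linear from 0) in the 4 control and 4 Dnm2 +/K562E mice (points) with mean and SD (bars). Synm, Plec, Cryab and Nes were lower in all 4 mutants than in any control, and the groups overlapped for Vim.

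Levels can be compared between genes only per length, and CPM per kilobase of exon is used here for that purpose. In controls, Cryab (919.7) and Des (819.9) led and overlapped in range, Des lay 13.6-fold above Vim (60.5), and Plec (44.5) and Synm (30.2) followed. Sync (13.5) and Nes (12.9) overlapped, and Krt18 (0.260) and Krt8 (0.0265) were far below. In mutants the order changed in places. Des (1355) now stood before Cryab (1205), still with overlapping ranges, and Vim (114) was 2.99-fold above Plec (38.0) instead of 1.36-fold. Sync (24.7) stood above Synm (20.4) without overlap, the reverse of controls, while Synm and Nes (14.7) overlapped. The gap was small, with 23.5 in the lowest mutant for Sync and 22.4 in the highest for Synm. Reads in the overlap with Rbbp4 may have counted for Sync, so this order is uncertain.

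**Figure D4:**
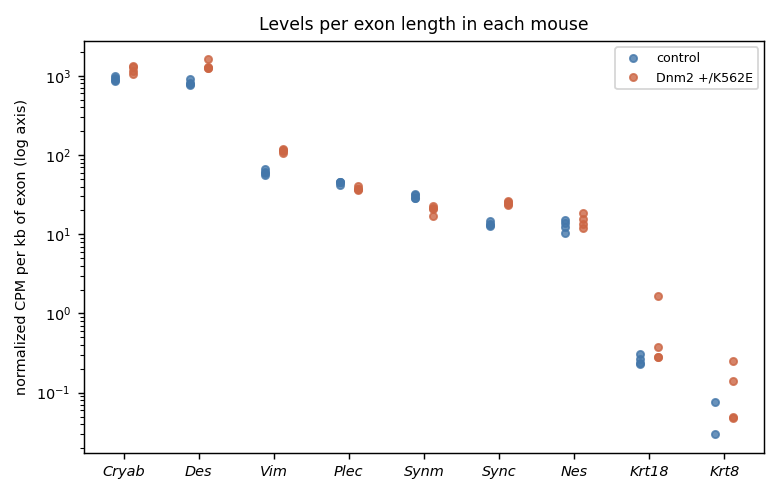
Normalized CPM per kilobase of exon (log axis) for the 9 genes in the 4 control and 4 Dnm2 +/K562E mice (points), where a mouse with no read is not drawn. Des and Cryab led in both groups, and Sync and Synm exchanged places between the groups, although reads in the overlap with Rbbp4 may have counted for Sync.

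Profiles over the 8 mice were compared by the root mean square difference between log2 CPM values, each centred on the mean of its gene. Des was nearest to Eid1 (0.07), Esd (0.08) and Hmga1 (0.08), and Vim to Itm2c, Fam114a1 and Col18a1 (0.06 each). The nearest genes to Sync were Acot9 (0.05), Camk2d (0.06) and Ppfibp1 (0.07), and those to Cryab were Gm20458, Rnf19b and Arl6ip5 (0.07 each). Synm was nearest to Tpm2 (0.05), Dnajc27 (0.06) and Fhod3 (0.06), Plec to Gid4, Mark3 and Clip1 (0.03 each), and Nes to Nus1 (0.08), Arl4a (0.08) and St13 (0.09). Krt18 had no close neighbour, with Foxf1 (0.44), Prrg4 (0.48) and Zfp873 (0.48) the nearest. Among the 8 tested of the 9 genes the closest pair was Des and Sync (0.11) and Vim and Sync came next (0.15), whereas Vim and Synm were 0.76 apart. Differences between genotypes enter these distances, and they are given as a description.

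Genes related to these 9 were taken from 4 lists with 48 tested genes, of which 12 were higher and 12 lower. Over all tested genes, 22.2% were higher and 21.7% lower, and these shares also apply beside the counts of each list below. With library size alone the split was 22 higher and 5 lower, against 5606 higher and 1505 lower of all 14001 genes tested. Among 24 other intermediate filament genes 12 were tested, 4 were higher, 2 were lower and the median log2 fold change was 0.31, against 0.01 over all tested genes. Prph, which encodes peripherin, a type III filament protein like desmin and vimentin and best known from peripheral neurons, was at 2.77, 2.08, 1.95 and 1.94 CPM in controls and at 11.4, 12.6, 11.9 and 12.2 CPM in mutants, so the groups lay far apart. Its log2 fold change was 2.46 ± 0.13 (SE, adjusted p = 6.72e-07). Neurofilament genes, also filament genes of neurons, were at the limit of detection. Over all mice there were 40 reads for Nefl, 46 for Nefm and 36 for Nefh, and none passed the filter on low counts. Their means in that order were 0.0650, 0.0837 and 0.0539 CPM in controls and 0.195, 0.209 and 0.179 CPM in mutants. Lmna, the gene of the nuclear lamins A and C and the most abundant of the list, rose from 134.7 ± 12.2 to 213 ± 32.9 CPM (log2 fold change 0.66, adjusted p = 0.000619). Krt7 (2.37, 165 reads in all) and Krt80 (0.77) were higher, and Bfsp2, a lens filament gene (-1.001), and the lamin gene Lmnb1 (-0.62) were lower, although the last 2 did not pass the test with library size alone (adjusted p = 0.0578 and 0.106). The epidermal keratin genes Krt1 and Krt5 had no read in any mouse.

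Of 12 plakins and desmosomal linkers, the relatives of plectin and their junction partners, 8 were tested and 3 passed. Macf1, which links microtubules and actin, was at 198, 182, 181 and 194 CPM in controls and at 323, 299, 322 and 349.9 CPM in mutants (log2 fold change 0.78, adjusted p = 5.90e-06), so it was higher in every mutant. Pkp2, a plakophilin of desmosomes, was also higher (1.30), and Pkp4 was lower (-0.82). Dst, the gene of dystonin and the most abundant plakin of the list, was at 615 ± 21.7 and 686 ± 46.3 CPM and did not pass the test (log2 fold change 0.16, adjusted p = 0.0678). It passed with library size alone (0.37, adjusted p = 0.000536) and in DESeq2 (0.15, adjusted p = 0.0480). The median was 0.07, near that of all genes.

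Of 12 chaperones and turnover factors that act on filaments, 4 were higher and 2 lower, with a median log2 fold change of 0.17. Hspb1, a small heat shock protein gene, had a log2 fold change of 1.17 (213.6 ± 30.9 to 481 ± 103 CPM, adjusted p = 0.000103), but 55.4% of its stretches of 31 bases also occur elsewhere, mainly in the pseudogene Hsp25-ps1. Hspb8, which works with the co-chaperone Bag3, was higher by 0.86 on the log2 scale (adjusted p = 0.000123), and Bag3 did not pass the test (-0.07, adjusted p = 0.412). Capn1, the gene of the protease calpain-1, was higher by 0.49 and Dnajb6, a co-chaperone gene whose mutations cause a myofibrillar myopathy, by 0.36. Hspb6 (-0.37) and Stub1 (-0.29), the gene of the ubiquitin ligase CHIP, were lower, but did not pass the test with library size alone (adjusted p = 0.114 and 0.326). Stub1 shares 42.3% of its exon length with Jmjd8, and 22.7% of the stretches of Dnajb6 occur elsewhere, so both counts are uncertain. Hspb7, the most abundant, was at 2788 ± 165 and 3305 ± 414 CPM (log2 fold change 0.24, adjusted p = 0.0501). It too passed with library size alone (0.46, adjusted p = 0.00108) and in DESeq2 (0.24, adjusted p = 0.0282).

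Of 16 costamere and Z-disc partners, the structures to which desmin filaments are anchored, 2 were higher and 7 lower with TMM scaling. Their median log2 fold change was -0.15. The lower genes included Nrap (-0.59), Ldb3 (-0.57) and Myot (-0.55), which encode Z-disc or myotendinous proteins, and Neb, the gene of nebulin, the most abundant of the list (4889 ± 266 to 3973 ± 365 CPM, log2 fold change -0.30, adjusted p = 0.0121). Nrap, Ldb3 and Myot remained lower with library size alone (adjusted p = 0.00635, 0.00125 and 0.00125), and Neb did not pass the test (adjusted p = 0.306). In that scaling 4 genes of the list were higher and 4 lower, the median was 0.06 and 1 called gene changed sign, so the balance of the list depended on scaling. Dtnb, the gene of beta-dystrobrevin (1.00), and Tln1, the gene of talin 1 (0.31), were higher. Dtnb was at a low level, with a mean of 1.77 CPM in controls and 3.51 CPM in mutants and 807 reads in all. Dtna, the other dystrobrevin gene of the list, was at 101 and 96.5 CPM and did not pass the test (-0.07, adjusted p = 0.328). The mature myofibre markers had a median log2 fold change of -0.52, and the part of that shift in the levels of Z-disc genes, Synm and Plec was not tested. Smooth muscle, which also expresses desmin and synemin, had 4 of 5 smooth muscle and pericyte markers lower and 1, Cspg4, higher. Acta2 (-0.82), Tagln (-0.67) and the most abundant, Rgs5 (-0.35), were among the lower genes, although Rgs5 did not pass with library size alone (adjusted p = 0.0982). Over 62.4% of its exon length Tagln overlaps the antisense gene Gm48529, so its count is uncertain. The summed level of the list was 1513 to 1678 CPM in controls and 1055 to 1252 CPM in mutants. The 4 adipocyte markers, Adipoq, Plin1, Cidec and Retn, did not pass the test (adjusted p = 0.261 to 0.771), at 31.6 to 175 CPM in controls and 51.0 to 95.95 CPM in mutants, with Adipoq the most abundant. No marker of these lists was at 0 in all mice, and their part in the levels of Des and Synm was not tested.

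**Figure D5:**
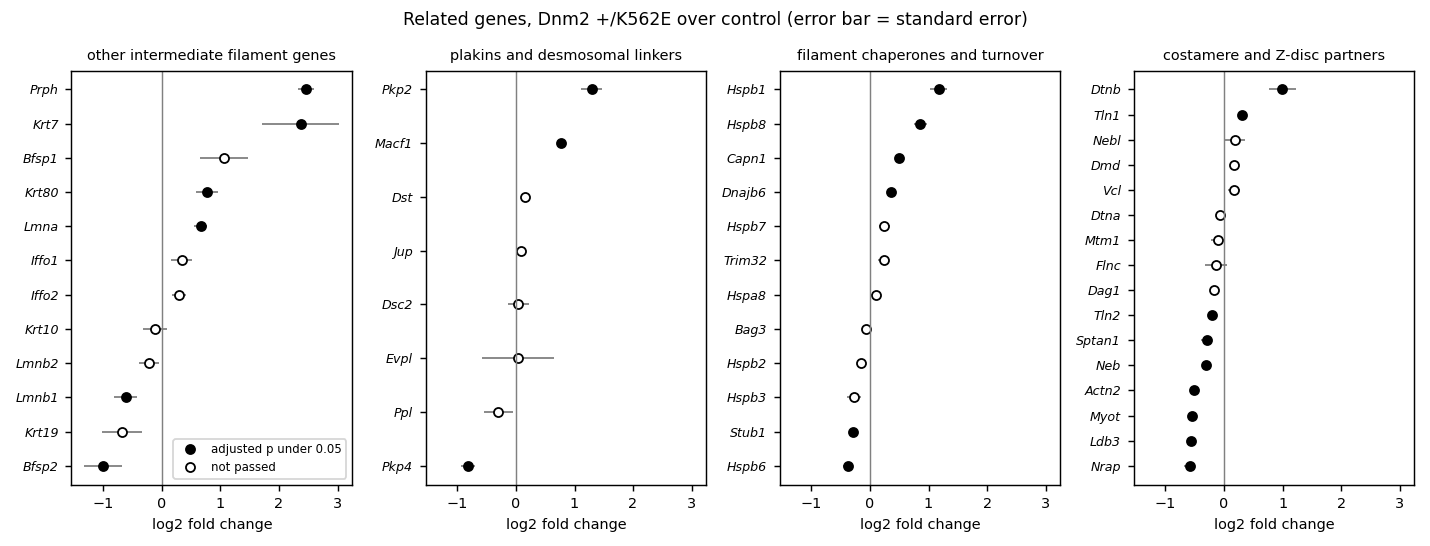
Log2 fold change of Dnm2 +/K562E over control (x axis, with SE bars) for each tested gene of the 4 lists of related genes, filled where the adjusted p was under 0.05 and open where it was not. Prph had the greatest increase at 2.46, and 7 of the 16 costamere and Z-disc genes were lower with TMM scaling, against 4 with library size alone.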

How the data were processed

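RNA-seq libraries came from soleus of 8 mice. Per the labels and methods, the authors trimmed reads with Trimmomatic 0.33, mapped them to GRCm38 with STAR 2.5.1b and assigned them to Ensembl genes with featureCounts; they deposited raw counts without normalization. The methods describe poly A-enriched libraries, the labels a total RNA kit. The label description of mutant 1 spells the allele differently from its title.

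Symbols, positions and exon lengths came from GENCODE M21 (22647 of 22880 IDs matched). edgeR 4.0.16 in R 4.3.3 (filterByExpr with minimum count 10 and total 15, TMM, quasi-likelihood F test, genotype only, Benjamini-Hochberg over 14001 genes) was the main test, at an adjusted p under 0.05. P-values of the main test set the difference between genotypes against the variation between mice, with the mouse as the unit. Those of the ratios compare the observed split of the mice with all other splits. Ratios used scipy 1.17.1 with 0.5 added to each count. In simulated counts, 96.5% of 200 genes changed by 1.5 (log2) were called in the right direction. Counts of mice of one genotype differed beyond counting noise, so none was a repeated library.

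The 9 genes and all lists were chosen with earlier results of these data known. Named from each list were up to 4 called genes with the greatest change (up to 2 for cell type markers), the most abundant gene, and genes said not to have passed. Lmnb1, Dnajb6, Stub1, Tln1, Myf5, Cspg4, Pecam1 and Emcn complete small counts, and were named, like Rbbp4, Hspb2 and Parp10, with values seen. For likeness the 3 nearest genes were named. Alternatives were edgeR's exact test, DESeq2 1.42.0, other scalings and filters, replicate blocks and leaving out each mouse. Eppk1, on the plakin list, was not analysed here. One further marker list is not reported here.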

Additional observations from a re-analysis of the deposited data

Results flagged for a closer look

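In 30 groups of 4 values examined for a mouse standing apart (Dixon's test, of which chance flags about 1 in 20), 4 values were found. Dnm2 +/K562E mouse 4 had 6032 CPM of Des, against 4700.1 to 4844 CPM in the other mutants. The same mouse had 2.38 CPM of Krt18, against 0.405 to 0.534 CPM in the others. Its log2 ratio of Vim to Des was -3.57, against -3.14 to -3.07 in the others. That ratio contains the same high Des count, so it is not independent of the Des value. The 30 groups included ratios of genes that were also examined alone. Control mouse 4 had a log2 ratio of Synm to Des of -3.52, against -3.75 to -3.72 in the other controls, and it was still above every mutant.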

How the results depend on the processing

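With library size alone, which moved the median over all genes from 0.01 to 0.22 on the log2 scale, 1 of the 9 genes, Synm, was lower and 5, with Nes added, were higher, all genes gave 5606 higher and 1505 lower against 3102 and 3036, and related genes gave 22 higher and 5 lower. Des, Vim, Sync, Cryab and Synm passed the test in the same direction in each of the 16 alternatives, with log2 fold changes of 0.63 to 0.93, 0.87 to 1.12, 0.83 to 1.08, 0.35 to 0.60 and -0.61 to -0.36, and Plec in 15 of them. Dnm2 passed with library size alone (0.36, adjusted p = 0.00271). Leaving out each mouse in turn gave 0 to 1 of the 9 genes lower by at least 0.58, which was Synm without control 1, control 2, mutant 3 or mutant 4. Over the same omissions the log2 ratio differences were -0.62 to -0.45 for Nes to Des, -1.35 to -1.24 for Synm to Des, -0.41 to -0.29 for Cryab to Des and -0.98 to -0.90 for Plec to Des, none of which could pass because 0.0571 is the smallest p that 3 against 4 mice can give. The correlation of deviations of same-numbered mice was -0.21 to 0.01 by title number and -0.17 to 0.18 by description number. It was over 0.1 in 1 pair, control 1 with mutant 2 by description number (0.18), which were also each other's best match, and not in the others, so the numbers were not taken to pair the mice. With the replicate block by title number, 2608 genes were higher and 2523 lower, Krt18 was at 0.92 (adjusted p = 0.209), and the calls of the 8 tested genes did not change under either block. Among the 9 genes, Krt8 and Krt18 had the fewest reads, 43 and 197 over all mice.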
